A study of Mus musculus with 25 samples.

Results

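The proteasome genes were followed across 8 sorted populations of mouse innate lymphocytes profiled by RNA sequencing. A member was any protein-coding row of the deposited count table whose symbol began with Psma, Psmb, Psmc, Psmd or Psme and a digit, which gave 45 of 46078 rows. By role they were 7 alpha-ring genes (Psma1 to Psma7), 4 structural beta-ring genes (Psmb1 to Psmb4), 3 constitutive catalytic beta genes (Psmb5, Psmb6 and Psmb7), 3 immunoproteasome genes (Psmb8, Psmb9 and Psmb10), 6 ATPases of the regulatory particle, 11 of its other subunits, 3 of its assembly chaperones (Psmd5, Psmd9 and Psmd10), 5 activators (Psme1, Psme2, Psme2b, Psme3 and Psme4), 2 tissue-restricted subunits and Psmc3ip. Psmc3ip shares the prefix only, because it encodes a meiotic recombination factor and no subunit. All other members are subunits, assembly factors or activators of the proteasome. Psma8, the testis subunit, had 24 reads in all libraries together and Psmb11, the thymus subunit, had 48, so neither passed the filter on low counts. The other 43 members were tested.

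The proteasome is the main protease of the cytosol and nucleus, and it degrades proteins that carry ubiquitin chains. Its core is a barrel of alpha and beta rings with 3 kinds of catalytic beta subunit, and a regulatory cap of ATPases and other subunits recognises, unfolds and feeds in the substrate. In lymphocytes, and after interferon gamma in most cells, Psmb8, Psmb9 and Psmb10 take the places of Psmb5, Psmb6 and Psmb7, and this immunoproteasome, with the PA28 activator made of Psme1 and Psme2, favours peptides that bind MHC class I.

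All mice were wild-type C57BL/6. The fetal liver group 1 innate lymphoid cells (FL G1-ILCs, 4 libraries) came from embryos at E18.5, and the 7 other groups came from animals of 8 weeks. From adult liver there were IL-7R- type 1 innate lymphoid cells (AL 7R- ILC1s, 4 libraries), their IL-7R+ counterparts (AL 7R+ ILC1s, 3 libraries) and natural killer cells (AL NK cells, 2 libraries). Bone marrow gave immature ILC1s (BM iILC1s, 3 libraries) and BM NK cells (3 libraries), the intestinal lamina propria gave LPL ILC1s (4 libraries) and the salivary gland gave SG G1-ILCs (2 libraries). Every gate was CD3- NK1.1+ NKp46+. Within it the ILC1 gates of adult liver and marrow were CD49a+ with low CD49b, the NK gates were CD49a- CD49b+, the fetal gate was intermediate for both, the lamina propria gate was CD27+ IL-7R+ and the salivary gland gate was CD49a+ CD49b+. The lamina propria and salivary gland were digested with collagenase, the lamina propria after an EDTA step, whereas liver was dissociated mechanically and marrow was flushed, so tissue and digestion cannot be told apart.

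Library totals ran from 2302643 to 7995906 reads with a median of 4603579. FL G1-ILC libraries 2 and 3 differed by little more than sampling noise (chi-square per degree of freedom 1.18, against 3.51 to 12.4 in the 28 other pairs of replicates) and were summed, which left 24 samples. The summed level of 5 ILC1 markers was 759 to 3303 counts per 1000000 reads (CPM) in the samples of the liver, marrow and lamina propria ILC1 groups and 16.1 to 27.0 CPM in both NK groups, whereas the summed level of 8 NK markers was 3883 to 5259 CPM in NK cells and 37.8 to 567 CPM in those ILC1 groups. The ILC1 sum hid single genes in LPL ILC1s, where 1 ILC1 marker was higher and 4 were lower than in AL 7R+ ILC1s. Of the 8 NK markers, 5 were higher and 1 was lower in LPL ILC1s than in AL 7R+ ILC1s. FL G1-ILCs lay at 714 to 815 CPM for ILC1 and 63.8 to 78.0 CPM for NK markers. SG G1-ILCs carried both sets, at means of 932 CPM for ILC1 and 1897 CPM for NK markers. The study calls the libraries biological replicates, but the sources used here do not tie them to separate animals, so the p-values measure the spread between these samples. In sorted bulk samples, fewer cells of a kind and less RNA per cell cannot be told apart.

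The start regions of the 6 catalytic genes and of Psme1 bear on which of them shared short sequence matches. RefSeq windows of 300 bases on GRCm38.p6, from 250 before to 50 after the start of a transcript, were found for 38 of the 45 members (41 windows), and not for Psmb7. The windows below show the 3 immunoproteasome genes, 2 of their constitutive counterparts and Psme1, written 5′ to 3′ on the gene's strand. Capitals mark matches on either strand to the interferon-stimulated response element (GAAA, any 2 bases, GAAA), the gamma-activated site TTCNNNGAA or the antioxidant response element TGACNNNGC.

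Psmb8 (chr17:34197945-34198244, plus strand): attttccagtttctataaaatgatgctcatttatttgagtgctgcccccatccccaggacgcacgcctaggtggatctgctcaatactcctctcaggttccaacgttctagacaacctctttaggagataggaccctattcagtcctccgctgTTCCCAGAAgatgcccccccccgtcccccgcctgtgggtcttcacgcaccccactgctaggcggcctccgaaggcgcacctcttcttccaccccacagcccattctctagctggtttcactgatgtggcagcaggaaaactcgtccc
Psmb9 (chr17:34187281-34187580, minus strand): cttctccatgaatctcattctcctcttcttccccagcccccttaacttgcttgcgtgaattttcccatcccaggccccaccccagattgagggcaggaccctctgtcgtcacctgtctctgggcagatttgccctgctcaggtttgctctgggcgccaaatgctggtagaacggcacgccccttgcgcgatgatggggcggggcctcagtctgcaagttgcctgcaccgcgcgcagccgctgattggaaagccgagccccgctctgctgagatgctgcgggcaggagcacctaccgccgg
Psmb10 (chr8:105938343-105938642, minus strand): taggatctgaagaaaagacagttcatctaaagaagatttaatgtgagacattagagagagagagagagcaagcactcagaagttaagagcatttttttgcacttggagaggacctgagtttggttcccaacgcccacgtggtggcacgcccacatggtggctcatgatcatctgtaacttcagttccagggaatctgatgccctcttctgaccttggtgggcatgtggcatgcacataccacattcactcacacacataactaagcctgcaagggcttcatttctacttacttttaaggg
Psme1 (chr14:55578244-55578543, plus strand): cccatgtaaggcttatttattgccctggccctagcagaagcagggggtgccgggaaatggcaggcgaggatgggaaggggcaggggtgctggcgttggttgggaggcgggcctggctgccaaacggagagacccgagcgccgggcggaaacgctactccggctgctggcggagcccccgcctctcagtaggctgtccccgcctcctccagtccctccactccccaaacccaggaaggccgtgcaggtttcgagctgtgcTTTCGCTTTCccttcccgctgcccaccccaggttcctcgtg
Psmb5 (chr14:54617946-54618245, minus strand): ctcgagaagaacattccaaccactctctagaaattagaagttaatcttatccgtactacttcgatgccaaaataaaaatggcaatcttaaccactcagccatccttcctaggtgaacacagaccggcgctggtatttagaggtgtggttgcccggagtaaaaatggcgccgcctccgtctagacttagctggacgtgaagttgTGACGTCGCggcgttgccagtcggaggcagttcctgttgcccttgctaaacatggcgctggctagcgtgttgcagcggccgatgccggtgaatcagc
Psmb6 (chr11:70525107-70525406, plus strand): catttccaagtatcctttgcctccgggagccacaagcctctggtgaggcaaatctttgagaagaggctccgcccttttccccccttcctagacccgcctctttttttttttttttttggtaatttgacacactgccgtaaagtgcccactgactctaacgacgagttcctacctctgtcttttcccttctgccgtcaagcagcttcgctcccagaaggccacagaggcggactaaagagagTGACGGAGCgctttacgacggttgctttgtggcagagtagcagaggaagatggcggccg

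Psmb8 held 1 gamma-activated-site match, 97 bases before the start, and Psmb9 and Psmb10 held none of the 3 motifs. Psme1 held an interferon-element match (read here on its other strand) 10 bases after the start. The windows of Psmb8, Psmb9 and Psme1 lay wholly inside the annotated spans of these genes, so bases before those spans were not searched. Psmb5 and Psmb6 each held 1 antioxidant-element match, 47 and 9 bases before the start. Over all members the antioxidant element lay in 6 of 41 windows (14.6%) against 12.4% of all 32851 RefSeq windows. The interferon element lay in 4 of 41 (9.76%) against 3.44%, and the gamma-activated site in 2 of 41 against 8.3%. A GC box, GGGCGG, lay in 23 of 41 windows (56.1%) against 35.7%, and CCAAT in 36.6% against 37.4%. The motifs were searched on both strands and can overlap. A match is a description of these letters only.

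All 43 tested members were transcribed in every group, and most were at their highest in fetal liver. Per kilobase of exon, mean levels over the 8 groups ran from 175 CPM for the structural beta gene Psmb2 down to 4.27 CPM for Psmc3ip. Psmb10 (141), Psme2 (137) and Psme1 (121) held the next places, and among true subunits and their partners the assembly chaperone Psmd9 (4.68) and the activator Psme4 (4.92) were lowest. By group mean of TMM-normalised CPM, 37 members were highest in FL G1-ILCs, 5 in LPL ILC1s and 1, Psmb10, in AL 7R- ILC1s. The lowest group was BM iILC1s for 12 members, SG G1-ILCs for 12, AL 7R- ILC1s for 6 and AL 7R+ ILC1s for 5. A test of any difference among the 8 groups called 41 of 43 members at an edgeR adjusted p under 0.05, where 77.6% of all 14123 tested genes were called. The 2 that missed were the assembly chaperones Psmd10 (edgeR adjusted p = 0.0519) and Psmd9 (0.0547).

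The 31 constitutive subunits of core and cap summed to 8035 ± 131 CPM (SD, n = 3) in FL G1-ILCs. LPL ILC1s stood at 6320 CPM (n = 4), and the 6 other groups lay between 4307 CPM in BM iILC1s and 4921 CPM in BM NK cells. The 3 immunoproteasome genes followed another order. They summed to 1013 CPM in FL G1-ILCs, 965 CPM in AL 7R- ILC1s and 860 CPM in AL 7R+ ILC1s, and the 5 other groups lay between 620 CPM in SG G1-ILCs and 732 CPM in BM iILC1s. As a share of all reads, which uses no scaling factor, the 45 members took 1.03% ± 0.0117 (SD, n = 3) in FL G1-ILCs, 0.635% in LPL ILC1s and 0.592% in SG G1-ILCs, with the other 5 groups from 0.666% to 0.726%. By mean share of reads LPL ILC1s therefore stood below the adult liver and marrow groups, whereas by TMM-normalised level they stood above them. The shares of single LPL samples ran from 0.609% to 0.670%. They overlapped those of BM iILC1s (from 0.650%), AL 7R+ ILC1s (from 0.652%) and AL NK cells (from 0.666%). All fetal samples lay above all other samples for 23 of the 31 constitutive subunits, and for the 8 others (Psma2, Psma3, Psmb6, Psmc6, Psmd4, Psmd8, Psmd11 and Psmd12) at least 1 LPL sample lay above the lowest fetal one.

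**Figure D1:**
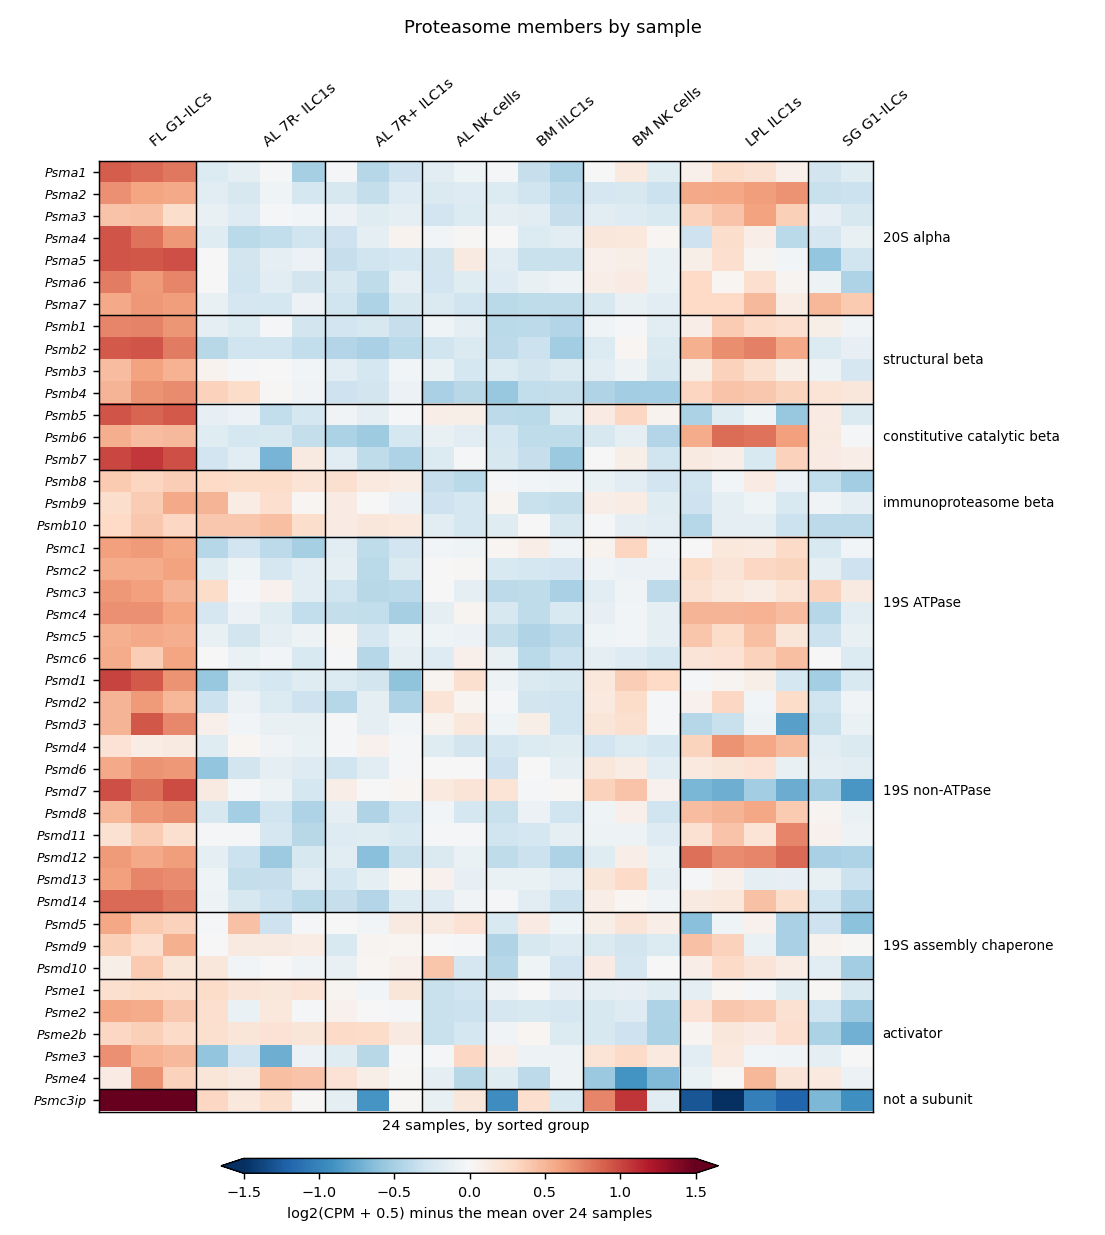
Level of each of the 43 tested members (rows, grouped by role) in each of the 24 samples (columns, grouped by population), as log2(normalised CPM + 0.5) minus the row's mean. The 3 FL G1-ILC samples were above all 21 other samples for 26 of 43 members, and the immunoproteasome rows were also high in AL 7R- ILC1s.

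Fetal G1-ILCs were compared with AL 7R- ILC1s to ask how the liver population before birth differed from its adult counterpart. Every one of the 31 constitutive subunits was higher in fetal cells, while none of the 3 immunoproteasome genes passed the test. In all, 35 of 43 members were higher and 0 were lower by edgeR's quasi-likelihood test, where 22.4% of all tested genes were called higher, 20% lower and 42.4% either way. The constitutive subunits had a median log2 fold change of 0.88, with a range of 0.23 to 1.26, while the median of all tested genes was -0.06.

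The catalytic pairs showed the contrast most plainly. Psmb5, the chymotrypsin-like subunit (14:54614119-54618022, minus strand), measured 148, 141 and 146 CPM in the 3 fetal samples and 70.6, 72.3, 59.5 and 64.1 CPM in AL 7R- ILC1s. The groups were far apart, with a log2 fold change of 1.13 ± 0.12 (SE; edgeR adjusted p = 1.95e-08). Psmb8 (17:34197721-34201454, plus strand), which replaces it in the immunoproteasome, measured 481, 458 and 472 CPM in the fetal samples and 450, 443, 445 and 422 CPM in AL 7R- ILC1s. The fetal values were above the adult ones, but by little, with a log2 fold change of 0.10 ± 0.08 (edgeR adjusted p = 0.355). Scaled to library totals instead, that value was -0.00136.

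Psmb7, the trypsin-like subunit (2:38588036-38644087, minus strand), measured 101, 106 and 99.1 CPM in fetal cells against 41.0, 44.5, 30.8 and 55.3 CPM. All fetal samples lay above the adult ones, and the log2 fold change was 1.26 ± 0.16 (edgeR adjusted p = 3.57e-07). Its replacement Psmb10 (8:105935735-105938444, minus strand) measured 295, 317 and 299 CPM against 319, 317, 329 and 288 CPM, and these groups overlapped (-0.05 ± 0.08, edgeR adjusted p = 0.688). Psmb6, the caspase-like subunit (11:70525367-70527858, plus strand), measured 286, 269 and 274 CPM against 172, 163, 166 and 153 CPM (0.76 ± 0.09, edgeR adjusted p = 1.19e-07). Psmb9 (17:34181987-34187764, minus strand), which replaces Psmb6, measured 215, 235 and 268 CPM against 255, 194, 214 and 184 CPM, again overlapping (0.18 ± 0.12, edgeR adjusted p = 0.225). Some exons of these genes overlap those of other genes, by 498 bases between Psmb8 and the antisense Gm20496, 212 bases between Psmb9 and Tap1, 405 bases between Psmb7 and Nek6 and 109 bases between Psmb5 and Mir686, and the counting's use of strand is not given in the sources used here.

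Of the other core subunits, Psmb2, a structural beta subunit, measured 386, 390 and 349 CPM in fetal samples against 152, 165, 165 and 158 CPM (1.23 ± 0.08, edgeR adjusted p = 2.89e-12), and the alpha-ring subunit Psma4 changed by 1.13 ± 0.13 (edgeR adjusted p = 3.82e-08). In the cap, the scaffold subunit Psmd1 changed by 1.18 ± 0.12 (edgeR adjusted p = 4.21e-09) and Psmd14, the deubiquitinase of the lid, by 1.08 ± 0.10 (edgeR adjusted p = 7.29e-10). The ubiquitin receptor Psmd4 changed least among constitutive subunits, by 0.23 (edgeR adjusted p = 0.0265). Activators were divided. Psme3, the nuclear PA28 gamma, was higher in fetal cells by 0.97 ± 0.12 (edgeR adjusted p = 2.01e-07) and Psme2 by 0.44 ± 0.09 (edgeR adjusted p = 0.000274), whereas Psme1 was at 0.05 (edgeR adjusted p = 0.638), Psme2b at 0.11 and Psme4 at 0.10. Psme2b is a near copy of Psme2, so reads may have been split between them and its value is uncertain. Of the 3 assembly chaperones only Psmd5 passed (0.40, edgeR adjusted p = 0.0301). Psmc3ip measured 26.0 CPM on average in fetal cells and 6.58 CPM in AL 7R- ILC1s (1.97 ± 0.34, edgeR adjusted p = 2.21e-05).

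Beyond the subunits, 14 of 32 listed genes of the wider ubiquitin-proteasome pathway were higher in fetal cells and 2 were lower. They included Txnl1, a thioredoxin bound to the cap (1.32), the core assembly chaperone Psmg1 (1.20) and Rps27a, a ubiquitin precursor (1.10). The lower genes included Nfe2l1, the transcription factor that drives proteasome genes when the protease is inhibited (-0.59). In a list of 18 antigen presentation and interferon genes the order was turned, with 3 higher and 9 lower. The lower ones included Tap2, of the peptide transporter (-0.95), Nlrc5, the transactivator of MHC class I (-0.91), and B2m (-0.84). All 14 listed proliferation genes were higher in fetal cells, with summed levels of 5536 to 6187 CPM against 282 to 434 CPM, and their part in the result was not tested.

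Against AL NK cells the fetal cells were higher for both sets. In this comparison 39 of 43 members were higher and 0 lower (19.8% of all genes were higher, 16.5% lower and 36.3% either way), among them 30 of 31 constitutive subunits with a median log2 fold change of 0.73. All 3 immunoproteasome genes were higher as well, Psmb8 by 0.74 ± 0.10 (edgeR adjusted p = 8.61e-07), Psmb9 by 0.70 ± 0.14 (0.000257) and Psmb10 by 0.55 ± 0.10 (9.48e-05), as were 5 of 5 activators. AL NK cells measured 287 and 276 CPM for Psmb8, 144 and 150 CPM for Psmb9 and 213 and 201 CPM for Psmb10, below every fetal sample. The 14 proliferation genes were higher here too, and their part was not tested.

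Within adult liver, the ILC1s were set against NK cells of the same organ. AL 7R- ILC1s were higher than AL NK cells for the immunoproteasome and its activator, and the constitutive subunits mostly did not pass the test. There were 8 members higher and 4 lower of 43, where 20.4% of all genes were called, 9.98% higher and 10.5% lower. Psmb8 was higher by 0.64 ± 0.09 (edgeR adjusted p = 5.27e-06), Psmb10 by 0.60 ± 0.10 (2.97e-05) and Psmb9 by 0.52 ± 0.14 (0.00499), and for all 3 genes each of the 4 ILC1 samples lay above both NK samples. Both PA28 genes were higher, Psme1 by 0.53 (edgeR adjusted p = 6.91e-05) and Psme2 by 0.41 (0.00525). Psme1 measured 327, 308, 304 and 311 CPM in AL 7R- ILC1s against 215 and 219 CPM in AL NK cells. Psme2b (0.51), Psme4, the nuclear activator PA200 (0.59), and the structural beta gene Psmb4 (0.61, edgeR adjusted p = 0.000708) completed the higher set. Psme4, with an edgeR adjusted p of 0.0352, did not pass without AL 7R- replicate 3 (0.0795) or 4 (0.0714). Psme2b had 0.47 without AL NK replicate 1, which left 1 NK sample.

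The 4 lower members were the nuclear activator Psme3 (-0.56, edgeR adjusted p = 0.00342), the scaffold subunits Psmd1 (-0.44, 0.0181) and Psmd2 (-0.36, 0.0332) and the ATPase Psmc1 (-0.34, 0.0202). Of these, Psmd1 and Psmd2 did not pass without AL 7R- replicate 1, nor Psmd2 and Psmc1 without AL 7R- replicate 4. The 31 constitutive subunits had a median of -0.13, with 1 higher and 3 lower. In the antigen presentation list 10 of 18 genes were higher, including Nlrc5 (0.83), Tapbpl, a peptide editor of MHC class I (0.82), and B2m (0.66), and 2 were lower, the transcription factor Irf8 (-2.99) and the receptor gene Ifngr1 (-1.66). Of 10 tested T cell markers 7 were higher in AL 7R- ILC1s, with a summed level of 3072 to 3694 CPM against 496 and 547 CPM. Most of it came from Cd3g (1881 CPM on average against 4.92 CPM), which the study lists as an ILC1 signature gene. Of 14 proliferation genes 7 were lower, with mean sums of 344 CPM against 642 CPM, as were 7 of 14 dissociation genes with 1 higher (1120 CPM against 1634 CPM). Their part in the result was not tested. With only 2 NK samples, the count depended on each. It fell to 4 higher and 2 lower without AL NK replicate 1, where Psmb9 had 0.49 with an edgeR adjusted p of 0.0787, and to 6 higher and 0 lower without replicate 2.

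AL 7R+ ILC1s gave a smaller set against the same NK samples, with 5 members higher and 3 lower (15.8% of all genes were called, 8.05% higher and 7.7% lower). Psmb8 measured 432, 406 and 396 CPM in them and was higher by 0.55 ± 0.10 (edgeR adjusted p = 0.000128). Psmb10 was higher by 0.36 ± 0.10 (0.0131), and Psmb9 was at 0.31 ± 0.14 without passing (0.161). Psme1 (0.38), Psme2 (0.35) and Psme2b (0.54) were higher, whereas Psmd1 (-0.50), Psmd2 (-0.47) and the ATPase Psmc4 (-0.36) were lower. Apart from Psmb8, each of these calls was lost when some single replicate was left out. Without AL 7R+ replicate 3, Psmd1 (-0.38, edgeR adjusted p = 0.0947), Psmd2 (-0.40, 0.0529) and Psmc4 (-0.31, 0.0749) did not pass. Psme2 did not pass without AL 7R+ replicate 1 (0.32, 0.0897) or 2 (0.35, 0.0601). Psme2b had 0.50 without AL NK replicate 1, which left 1 NK sample. The calls of Psmb10, Psme1 and Psme2 rested on both NK samples. Without AL NK replicate 1 their log2 fold changes were 0.41, 0.36 and 0.34. Without replicate 2 they were 0.31, 0.39 and 0.34, each time with 1 NK sample left. Compared directly, AL 7R+ and AL 7R- ILC1s differed for 2 of 43 members, both lower in AL 7R+ ILC1s, where 5.23% of all genes were called, 3.03% higher and 2.2% lower. These were the ATPase Psmc3 (-0.42 ± 0.10, edgeR adjusted p = 0.00734) and Psmb4 (-0.37 ± 0.11, 0.0425), and 1 of the 2 calls was lost without AL 7R- replicate 1 or 2 or without AL 7R+ replicate 1 or 2. DESeq2 also called Psmb10 lower in AL 7R+ ILC1s (-0.23, DESeq2 adjusted p = 0.0431).

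**Figure D2:**
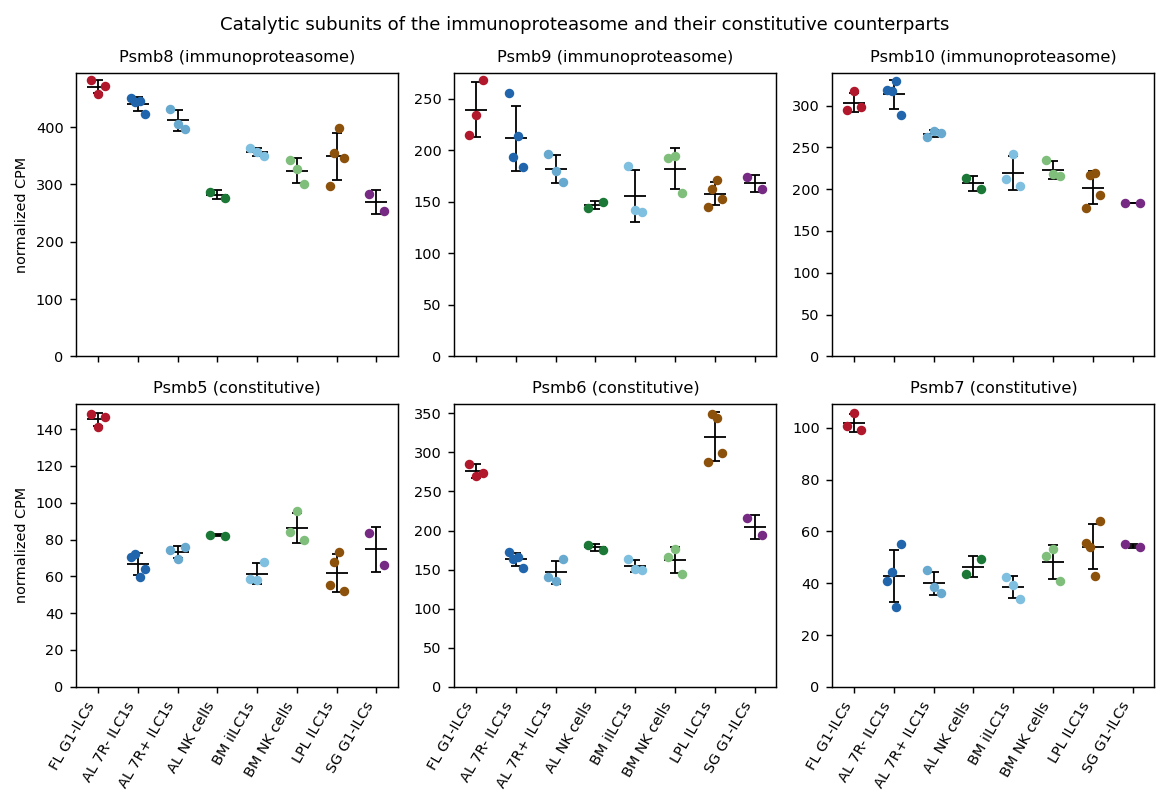
TMM-normalised CPM (vertical axes from 0) of the 3 immunoproteasome genes (upper panels) and of the constitutive genes they replace (lower panels) in each sample, by population; bars give the mean ± SD. FL G1-ILCs stood apart for Psmb5 and Psmb7 with all values at or above 141 and 99.1 CPM, whereas Psmb6 was as high in LPL ILC1s and Psmb10 was as high in AL 7R- ILC1s.

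In bone marrow, the immature ILC1s were compared with NK cells of the marrow. No immunoproteasome gene passed the test, and 5 constitutive members were lower in BM iILC1s and 0 higher, where 12.2% of all genes were called, 6.6% higher and 5.55% lower. They were Psmb5 (-0.50 ± 0.13, edgeR adjusted p = 0.013), Psmd1 (-0.46, 0.0159), the structural beta genes Psmb1 (-0.32, 0.0125) and Psmb2 (-0.28, 0.042) and the ATPase Psmc5 (-0.31, 0.0348). Psmb5 measured 58.3, 57.7 and 67.9 CPM in BM iILC1s and 83.9, 95.4 and 79.9 CPM in BM NK cells, with no overlap. Psmb8 measured 363, 357 and 349 CPM against 343, 328 and 300 CPM, a difference of 0.14 that did not pass (edgeR adjusted p = 0.383), while Psmb9 was at -0.23 (0.30) and Psmb10 at -0.02 (0.927). All 14 proliferation genes were lower in BM iILC1s, with sums of 366 to 608 CPM against 865 to 2241 CPM in BM NK cells. All 10 tested T cell markers were higher (1407 to 1780 CPM against 589 to 688 CPM), among them Cd3g, which the study lists as an ILC1 signature gene. Of 12 tested myeloid markers 6 were higher and 1 lower, with BM iILC1s replicate 2 apart at 1568 CPM against 322 and 308 CPM in the other replicates. The part of the proliferation, T cell and myeloid genes was not tested. DESeq2 also called the activators Psme2b (0.29) and Psme4 (0.52) higher in BM iILC1s. The count was 2 without BM iILC1s replicate 2 or 3 and 0 without BM NK replicate 2.

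Liver and marrow were then compared for each cell kind. BM iILC1s and AL 7R+ ILC1s differed for 0 of 43 members by edgeR, where 8.11% of all genes were called, 4.19% higher and 3.92% lower. Of the members, 7 had an unadjusted p under 0.05, 1 higher and 6 lower, and DESeq2 called 4. The smallest edgeR adjusted p was 0.054, for Psmb10 (-0.28). DESeq2 called Psmb10 (-0.27, DESeq2 adjusted p = 0.0174), the ATPase Psmc5 and Psme2b lower and the ATPase Psmc1 higher in BM iILC1s. BM NK and AL NK cells differed for 0 members by edgeR against 2.6% of all genes (0.998% higher and 1.6% lower), with 4 at an unadjusted p under 0.05 and 0 called by DESeq2. The difference between tissues in the ILC1-over-NK contrast, with AL 7R+ ILC1s as the liver ILC1s, was tested as an interaction. By edgeR 0 members passed against 3.17% of all genes (1.8% higher and 1.37% lower), with 4 at an unadjusted p under 0.05, all lower. Psmb8 had an interaction of -0.41 ± 0.13 (edgeR adjusted p = 0.0944), Psmb10 of -0.39 ± 0.14 (0.151) and Psmb9 of -0.53 ± 0.19 (0.154), none past the threshold. DESeq2 called 1 member, Psmb8 (-0.38 ± 0.12, DESeq2 adjusted p = 0.0428), lower in marrow relative to liver.

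LPL ILC1s were compared with AL 7R+ ILC1s, the liver population that shares IL-7R with them. Here the direction for some members, and which members passed the test, depended on how the libraries were scaled. Under TMM, 26 members were higher and 4 lower of 43, where 50.7% of all genes were called (24.6% higher and 26.1% lower), and 25 of 31 constitutive subunits were higher with 1 lower and a median of 0.50. Under plain library totals, which moved the median of all genes by -0.46, 6 members were higher and 14 lower, the constitutive subunits split into 6 higher and 5 lower with a median of 0.03, and 9 of the 26 higher members had log2 fold changes below 0. The TMM factors of the LPL libraries were 0.78 to 0.80 and those of all other samples 0.95 to 1.12.

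The 6 members higher under both scalings were Psma2, Psmb2, Psmb6, Psmc4, Psmd8 and Psmd12. Psmd12, a lid subunit, measured 228, 210, 213 and 232 CPM in LPL ILC1s against 115, 82.5 and 101 CPM in AL 7R+ ILC1s, with no overlap. Its log2 fold change was 1.14 ± 0.11 (edgeR adjusted p = 1.31e-09) under TMM and 0.68 under library totals. Psmb6 measured 288, 349, 344 and 299 CPM against 140, 135 and 164 CPM (1.13 ± 0.10, edgeR adjusted p = 8.72e-11, and 0.66 under library totals). Its catalytic partners did not share that level. Psmb5 had a value of -0.24 that did not pass under TMM and was called lower under library totals (-0.70, edgeR adjusted p = 3.00e-05), and Psmb7 had 0.44 (edgeR adjusted p = 0.0336) under TMM but -0.0303 under library totals. Psmb2 had 1.09 ± 0.09 (edgeR adjusted p = 2.87e-11) and 0.62.

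Members lower under both scalings included Psmd7, the lid subunit that pairs with Psmd14, and immunoproteasome genes. Psmd7 measured 72.3, 70.3, 81.6 and 69.8 CPM in LPL ILC1s against 126, 117 and 119 CPM, a change of -0.71 ± 0.11 (edgeR adjusted p = 6.87e-06) and of -1.18 under library totals. Psmb10 measured 178, 217, 219 and 193 CPM against 262, 270 and 267 CPM (-0.40, edgeR adjusted p = 0.000253), and Psmb8 297, 355, 398 and 345 CPM against 432, 406 and 396 CPM (-0.24, 0.0154). The Psmb8 call was lost with DESeq2 (-0.17, DESeq2 adjusted p = 0.0648) and with RLE factors (-0.16, edgeR adjusted p = 0.0801), whereas Psmb10 stayed lower with both. The Psmb10 groups were apart, while the highest LPL value of Psmb8 lay above the lowest liver value. Psmb9 was at -0.20 (0.151) under TMM. Under library totals all 3 were lower, at -0.70 for Psmb8, -0.67 for Psmb9 and -0.87 for Psmb10.

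The list counts of this comparison are given under TMM only, and library totals moved the median of all genes by -0.46. Of the wider pathway 14 genes were higher and 7 lower in LPL ILC1s. The higher ones were led by the ubiquitin gene Ubb (1.87), Zfand5, a stress-induced partner of the proteasome (1.84), and Akirin2, which brings proteasomes into the nucleus (1.83). The lower ones included the core assembly chaperone Psmg3 (-1.21) and Nfe2l1 (-1.04). In the antigen presentation list 6 were higher, Ifng (2.86) and Irf8 (3.40) among them, and 7 lower, with Ifnar2 (-1.28), Irf2 (-1.16) and Nlrc5 (-1.05). All 14 listed genes known to respond to tissue dissociation were higher, with sums of 19100 to 24716 CPM against 1061 to 1206 CPM. LPL ILC1s also carried 3028 to 3443 CPM over 8 erythroid markers, of which 7 were under 1 CPM, and 33.3 to 239 CPM over 4 ILC3 markers, against 4.33 to 7.37 CPM in AL 7R+ ILC1s. Their part in the result was not tested.

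SG G1-ILCs were compared with AL 7R- ILC1s. Psmb8, Psmb10 and both PA28 genes were lower in the salivary gland, and few constitutive subunits passed. Under TMM 3 members were higher and 7 lower of 43, where 32.5% of all genes were called, 17.8% higher and 14.6% lower. Psmb8 measured 283 and 254 CPM against 422 to 450 CPM in AL 7R- ILC1s (-0.71 ± 0.09, edgeR adjusted p = 7.67e-07), and Psmb10 184 and 183 CPM against 288 to 329 CPM (-0.77 ± 0.10, 4.51e-07). Both genes were apart in all samples. Psmb9, at 174 and 162 CPM, was at -0.33 without passing (0.059), and passed at -0.48 under library totals. Psme2 (-0.49), Psme2b (-0.80) and Psme1 (-0.31, edgeR adjusted p = 0.00956) were lower, as were Psmd7 (-0.63, 0.000547) and Psmd5 (-0.50, 0.0308).

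The higher members were the alpha-ring gene Psma7, at 453 and 419 CPM against 296, 268, 266 and 301 CPM (0.62 ± 0.09, edgeR adjusted p = 3.82e-06), the cap subunit Psmd8 (0.35, 0.0269) and Psmb6 (0.32, 0.0187). Under library totals, which moved the median of all genes by -0.15, only Psma7 of these stayed higher and 14 members were lower. Without SG replicate 2, which left 1 SG sample, Psme1 had a log2 fold change of -0.19, Psme2 of -0.38 and Psmd7 of -0.45. The calls of these members rested on that replicate. Psmd8 did not pass without AL 7R- replicate 2 (0.31, edgeR adjusted p = 0.0714) or 4 (0.32, 0.06). Without SG replicate 1, which also left 1 SG sample, Psmb6 had 0.24 and Psmd8 had 0.28. The list counts that follow are given under TMM only. In the antigen presentation list 4 genes were higher and 8 lower, with Nlrc5 (-2.01), Tap1 (-0.82) and Tap2 (-0.80) among the lower ones and Irf8 (3.05) among the higher ones. Of the wider pathway 9 were higher, including Zfand5 (2.03) and Akirin2 (1.01), and 2 were lower. All 14 dissociation genes were higher here as well, at 19599 to 21880 CPM against 1054 to 1187 CPM. The SG samples also held 1180 and 1189 CPM over 15 myeloid markers, and a mean of 883 CPM over 10 epithelial markers of which 5 were under 1 CPM and 3 at 0. Their part was not tested.

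A ratio of 2 genes within a library does not depend on scaling. The log2 ratio of Psmb8 to Psmb5 reads averaged 1.69 for fetal G1-ILCs, the NK groups averaged 1.77 (liver) and 1.91 (marrow), and the salivary gland cells averaged 1.85. The ILC1 groups were higher, with means of 2.73 for IL-7R- and 2.49 for IL-7R+ liver cells, 2.54 for marrow and 2.50 for the lamina propria. The 14 samples of the 4 groups labelled ILC1s ran from 2.36 to 2.90 and the 10 samples of the 4 other groups from 1.69 to 2.03, without overlap. That split was noticed in the values and carries no test. Per kilobase of exon, the ratio of Psmb8 to Psmb5 ranged from 0.860 for the fetal cells to 1.76 for AL 7R- ILC1s.

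The other pairs were ordered differently. Psmb10 to Psmb7 was lowest in FL G1-ILCs (1.57), SG G1-ILCs (1.75) and LPL ILC1s (1.91), and highest in AL 7R- ILC1s (2.90), whose samples ran from 2.38 to 3.41. Psmb9 to Psmb6 was lowest in LPL ILC1s (-1.02), where all 4 samples lay between -1.11 and -0.97, and highest in AL 7R- ILC1s (0.36). FL G1-ILCs were below AL 7R- ILC1s by 1.03, 0.57 and 1.32 for the 3 pairs in turn, with every fetal sample below every adult one. Each of these gave an exact two-sided permutation p of 0.0571, the smallest that 3 against 4 samples allow when the p of 1 side is doubled. With p counted in this way, none of the 30 ratio tests could pass after adjustment, the lowest adjusted permutation p being 0.286.

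**Figure D3:**
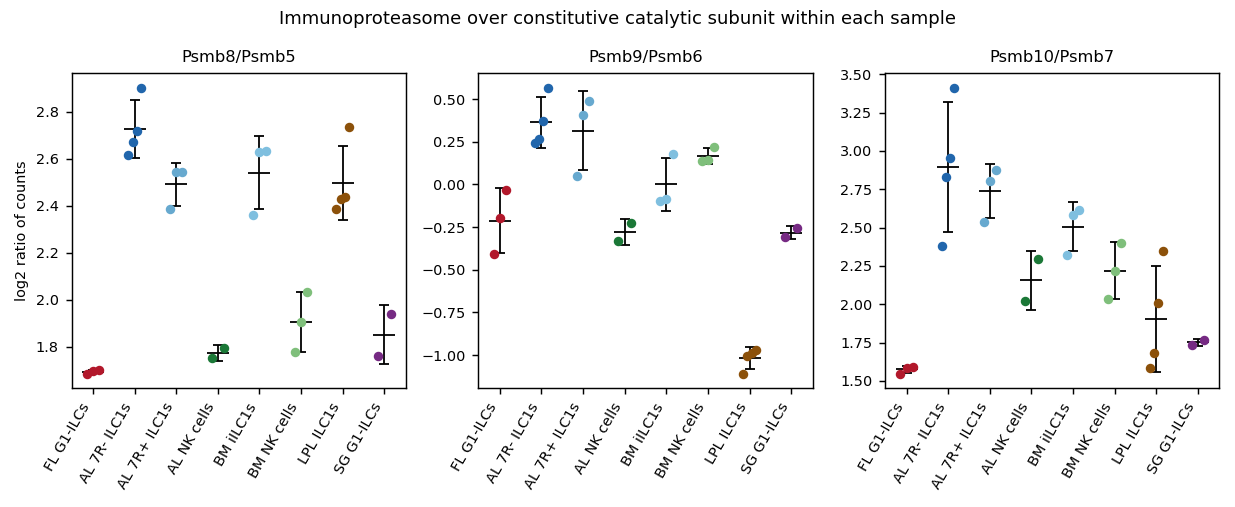
Log2 ratio of reads of each immunoproteasome gene to the constitutive gene it replaces, in each sample by population, with mean ± SD. For Psmb8 to Psmb5 the AL 7R-, AL 7R+, BM iILC1 and LPL samples lay between 2.36 and 2.90 and all others between 1.69 and 2.03, whereas Psmb9 to Psmb6 was lowest in LPL ILC1s.

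Across the 24 samples the constitutive subunits moved with one another more than with the immunoproteasome genes. The median Pearson correlation of log2 levels was 0.74 over 465 pairs of constitutive subunits, 0.76 over the 3 pairs of immunoproteasome genes and 0.26 over the 93 pairs between the sets. The samples share groups and scaling factors, so these values are a description without a test.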

How the data were processed

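Sorted group 1 innate lymphocytes of 8 populations were profiled by full-length (SMART-seq) RNA sequencing in 25 libraries. The authors deposited raw counts per gene, made with fastp 0.23.0 for trimming, HISAT2 2.1.0 for alignment (mm10) and featureCounts (Subread 1.6.5) for counting. The annotation, strand use and treatment of multi-mapping reads are not given in the sources used here. Gene names came from GENCODE, and the 849 rows without a name held 0.104% of counts. FL libraries 2 and 3 were summed.

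Counts were tested with edgeR 4.0.16 (robust quasi-likelihood, R 4.3.3) over all 14123 genes that passed filterByExpr with a minimum count of 10, with TMM factors, 1 model for all 8 groups and Benjamini-Hochberg adjustment over all genes at 0.05. Levels are TMM-normalised CPM. Log2 ratios of reads used a pseudocount of 0.5 and exact two-sided permutation tests over samples. The fit was tested on simulated data. DESeq2 1.42.0, other scalings and filters, a replicate block, fits of the compared groups alone, all 25 libraries and leaving out each replicate were the alternatives. The catalytic genes were named throughout, other members by fold change, up to 4 per direction with groups apart, and list genes by count with a few examples. Members and lists were chosen with earlier results of these data known. The comparisons share samples, so their calls are not independent, and the precision of each rests on 2 to 4 samples a group. Some items of the lists are not reported here.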

Additional observations from a re-analysis of the deposited data

How the results depend on the processing

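Under library totals LPL ILC1s against AL 7R+ ILC1s had 20 members called and SG G1-ILCs against AL 7R- ILC1s 15. Calls of FL G1-ILCs stayed between 33 and 35 against AL 7R- ILC1s and between 36 and 39 against AL NK cells when each replicate was left out in turn. For the other comparisons these ranges were 1 to 2 (AL 7R+ against AL 7R- ILC1s), 6 to 12 (AL 7R- ILC1s against AL NK cells), 3 to 7 (AL 7R+ ILC1s against AL NK cells), 0 to 7 (BM iILC1s against BM NK cells), 0 to 1 (BM iILC1s against AL 7R+ ILC1s, 1 without AL 7R+ replicate 2 or BM iILC1s replicate 2), 0 to 0 (BM NK against AL NK cells), 28 to 32 (LPL), 5 to 12 (SG), 41 to 42 (any difference) and 0 to 1 (interaction, 1 without BM iILC1s replicate 1).

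Without the filter on low counts the calls were 0 for AL 7R+ against AL 7R- ILC1s, 6 and 2 for these groups (IL-7R- first) against liver NK cells, and 2 for BM iILC1s against BM NK cells. With only the compared groups in the fit they were 1 for AL 7R+ against AL 7R- ILC1s and 3 for BM iILC1s against BM NK cells, and RLE factors and library totals also gave 3 for the latter. Library totals gave 1 for AL 7R+ against AL 7R- ILC1s. BM iILC1s against AL 7R+ ILC1s had 4 with DESeq2, 1 with RLE or library totals, 2 with a minimum count of 50 and 1 with all 25 libraries, and the interaction had 1 with DESeq2. Same-numbered libraries did not deviate together on average (mean correlation -0.00356 over 67 pairs, 0.00130 over 183 pairs of different numbers). These means run over all pairs of groups, so they cannot exclude a pairing limited to some groups, such as those of 1 organ. The replicate block gave 1 call for AL 7R+ against AL 7R- ILC1s. The cause of these differences was not tested.

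Under library totals 16 of 43 members changed sign in LPL ILC1s against AL 7R+ ILC1s, 5 in SG G1-ILCs against AL 7R- ILC1s and 6 each in AL 7R+ against AL 7R- ILC1s and BM NK against AL NK cells. Single catalytic genes were followed over all alternatives only in comparisons where at least 1 of them was called. Among these and the ratios, the following values changed sign. Under library totals they were Psmb8 in FL G1-ILCs against AL 7R- ILC1s (-0.00136) and Psmb7 in LPL ILC1s (-0.0303). Psmb7 in AL 7R- ILC1s against AL NK cells did so without AL 7R- replicate 3 (leave-one-out range -0.26 to 0.0165). Psmb10 in BM iILC1s against BM NK cells did so without BM iILC1s replicate 3 (0.0271) or BM NK replicate 1 (0.0156, range from -0.10). Psmb5 in SG G1-ILCs did so without SG replicate 1 (-0.00961, highest 0.33). The Psmb8 to Psmb5 ratio of LPL against AL 7R+ ILC1s did so with a pseudocount of 5 (-0.00487).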

Other observations

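Psmd7, a lid subunit, measured 69.8 to 81.6 CPM in the 4 LPL samples and 63.9 and 82.6 CPM in the 2 SG samples, below the other 18 samples, where it ran from 97.2 to 231 CPM. Both of these tissues, and no other, were digested with collagenase, so tissue and digestion cannot be told apart. The alpha-ring gene Psma7 went the other way in SG G1-ILCs, at 453 and 419 CPM, where AL 7R- ILC1s ran from 266 to 301 CPM, LPL ILC1s from 345 to 450 CPM and FL G1-ILCs from 475 to 502 CPM. Psmc3ip, the meiotic recombination factor that shares the prefix of the ATPases, ran from 23.2 to 29.6 CPM in FL G1-ILCs and from 5.06 to 12.6 CPM in BM NK cells, and it was 1.43 to 2.54 CPM in LPL ILC1s. These members were singled out after their values were seen.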
